A study of Oryzias latipes with 60 samples.

Results

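Within each group of juvenile medaka, a block of genes moved together from fish to fish over a wide range. The block held 200 of the 18880 genes that passed a filter on low counts, in a table of 20459 genes. Its members were chosen by a measured value: they are the 200 genes whose log2 CPM (counts per 1e+06 reads, scaled by the TMM method) had the highest Pearson correlation with ENSORLG00000007271, that gene included, after each gene was centred on the mean of its group. The correlation was taken over 54 fish, and the other 6 fish, which had low TMM scaling factors, were kept out of the choice. The correlations therefore describe how the genes were chosen, and no test is made on them. The differences between groups were removed by the centring, so they did not choose the members, and they were tested. The choice did favour genes of large spread within groups, and that spread is the error of those tests. Few calls among the members therefore follow in part from the choice. As the members move together, their tests are also not separate from one another.

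Poly-A RNA was sequenced from whole medaka (Oryzias latipes, a small freshwater fish) that were 3 to 4 weeks old and about 10 mm long. Of the 60 fish, 35 were xmrk transgenic and 25 wild type, and each library was taken as 1 fish. Fish were kept for 5 days in petri dishes with cisplatin at 70 µM or its vehicle saline, or with trametinib at 20 nM or its vehicle DMSO, while untreated fish stayed in ordinary housing. The transgenic fish numbered 10 with cisplatin, 10 with trametinib and 5 each with saline, with DMSO and untreated, and the wild-type fish numbered 5 in each of these conditions. The promoter that drives xmrk, the sex of the fish and the fish that shared a dish are not given in the labels. Dish and group can therefore not be told apart, and the p-values rest on fish-to-fish spread alone.

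When RNA is taken from a whole animal, each transcript level sums over all organs, and genes used by the same tissue or in the same physiological state tend to vary together between individuals. A fish with fewer cells of a type and a fish with less RNA per cell cannot be told apart in such data. The oncogene xmrk is a mutated copy of the EGF receptor gene whose product signals without ligand, in part through the RAS, MEK and ERK cascade. Trametinib inhibits MEK, and cisplatin crosslinks DNA. Genes are named by Ensembl identifier only. None of the 20459 identifiers (0) could be matched to a symbol, so no role, position or sequence is given for any member, no tissue marker could be searched, and the genotype of each fish rests on its label alone.

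Total counts per library lay between 34788594 and 67018564, with a median of 51038009. TMM factors lay between 0.232 and 1.28, and the lowest belonged to fish 17, a transgenic saline fish, in which CPM scaled by TMM is much higher than CPM by library total. Fish 17 was among the 6 fish kept out of the choice of genes, and values without it are given beside the results that it moves.

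ENSORLG00000007271 was high in some fish and low in others in every group. Among untreated fish, the transgenic fish had 39.5, 0.212, 0.165, 0.174 and 31.7 CPM, and the wild-type fish had 0.0478, 45.9, 49.1, 0.367 and 9.47 CPM. In saline, the transgenic fish had 43.01, 0.187, 30.3, 963 and 0.118 CPM, and the wild-type fish had 64.3, 86.1, 0.729, 0.170 and 0.189 CPM. The value of 963 CPM came from fish 17, and by its library total that fish had 224 CPM. In both conditions each genotype held fish above 30 CPM beside fish under 1 CPM, so the ranges of the genotypes overlapped.

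With cisplatin, the 10 transgenic fish had a lowest value of 0.0396, a median of 9.63 and a highest value of 83.1 CPM of ENSORLG00000007271, and the wild-type fish had 40.1, 0.379, 0.246, 0.275 and 27.4 CPM. In DMSO, the transgenic fish had 0.182, 17.4, 0.243, 75.9 and 52.4 CPM, and the wild-type fish had 107, 1.47, 19.6, 3.88 and 1.20 CPM. With trametinib, the transgenic fish had a lowest value of 0.127, a median of 0.297 and a highest value of 98.7 CPM, and the wild-type fish had 80.0, 1.06, 116, 0.446 and 0.104 CPM. High and low fish were again present in each of these groups, and no group lay apart from its vehicle.

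Taking 10 CPM of ENSORLG00000007271 as a line between high and low fish, 27 of the 60 fish were high. High fish made up 5 of 10 transgenic and 2 of 5 wild-type fish with cisplatin, and 3 of 5 transgenic and 2 of 5 wild-type fish in saline. They made up 4 of 10 transgenic and 2 of 5 wild-type fish with trametinib, and 3 of 5 transgenic and 2 of 5 wild-type fish in DMSO. Untreated fish had 2 of 5 high in either genotype. Wild-type untreated fish 72 lay just under the line with 9.47 CPM, and by its library total it had 11.3 CPM, above the line. Over all conditions, 17 of 35 transgenic fish and 10 of 25 wild-type fish were high.

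**Figure D1:**
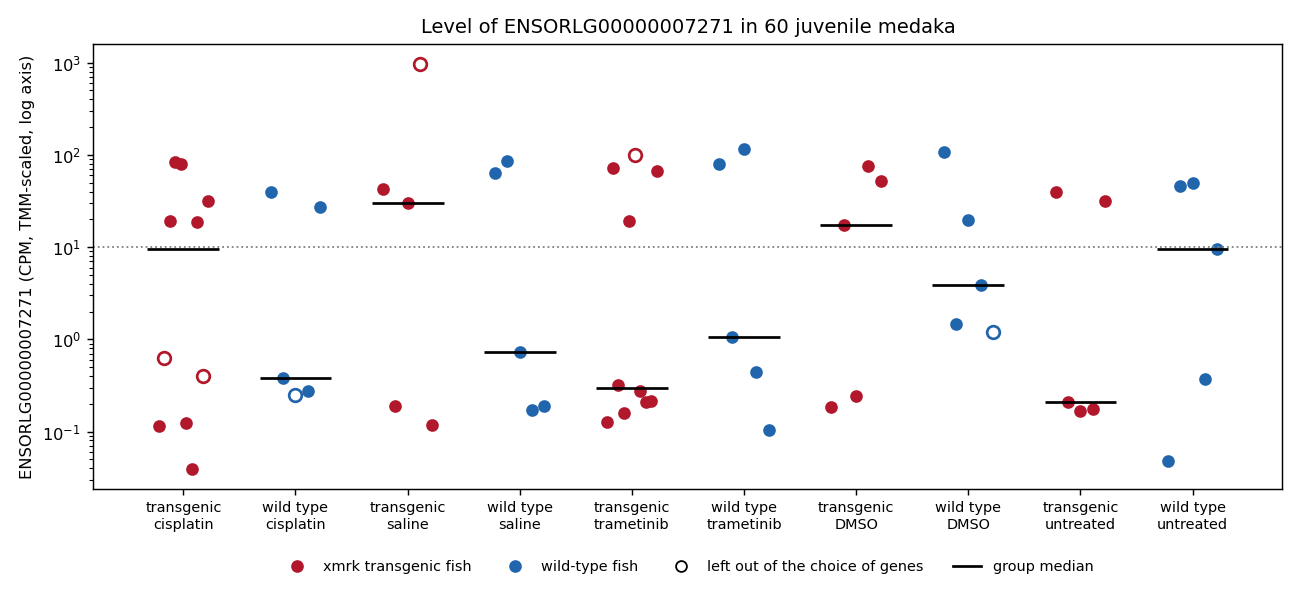
Level of ENSORLG00000007271 in each of the 60 fish, in TMM-scaled CPM on a log axis, by genotype and treatment; each point is 1 fish, open points are the 6 fish kept out of the choice of genes, black bars are group medians and the dotted line marks 10 CPM. Every group holds fish above and below the line, and the highest point, at 963 CPM, is fish 17 of the transgenic saline group.

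By an exact permutation test, no difference of ENSORLG00000007271 between groups was detected. In 13 comparisons of 2 groups, the two-sided exact permutation test of the difference of mean log2 CPM gave p-values between 0.452 and 0.929, and all had an adjusted p of 0.929. The smallest p the test could give was 0.00794 for 5 fish against 5 and 0.000333 for 10 against 5. The SD within a group was 2.72 to 5.39 on the log2 scale, against differences of group means between -1.55 and 2.34. Leaving out 1 fish turned the sign of the difference in 9 of the comparisons. Without fish 17 the difference was -0.15 between genotypes in saline, 0.16 for cisplatin against saline in transgenic fish and 0.63 for saline against untreated in transgenic fish, with 1.56, -1.55 and 2.34 when it was kept.

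The other 199 members followed ENSORLG00000007271 closely, as the rule required. Their r lay between 0.902 and 0.995 with a median of 0.962, and the remaining genes had a median r of -0.0546. In all, 121 members had r above 0.95 and 13 above 0.99. The highest were ENSORLG00000020195 (0.995), ENSORLG00000014764 (0.994), ENSORLG00000020200 (0.993), ENSORLG00000002406 (0.992) and ENSORLG00000016580 (0.991). The limit at rank 200 cut a continuous scale. The last members, ENSORLG00000008282, ENSORLG00000013695, ENSORLG00000017551, ENSORLG00000004312 and ENSORLG00000011377, had r of 0.904, 0.903, 0.903, 0.902 and 0.902. The first genes outside, ENSORLG00000002267, ENSORLG00000015343, ENSORLG00000014618, ENSORLG00000006875 and ENSORLG00000019395, had r of 0.902, 0.902, 0.901, 0.901 and 0.8998.

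Past that limit the numbers fell away slowly. Counting the members, 204 genes had r above 0.9, a further 101 had r of 0.8 to 0.9, and 684 had r of 0.5 to 0.8. Only 17 genes had r below -0.5, so no block of similar size ran opposite to the members. The most negative were ENSORLG00000003613 (-0.61), ENSORLG00000019606 (-0.58) and ENSORLG00000020180 (-0.55).

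**Figure D2:**
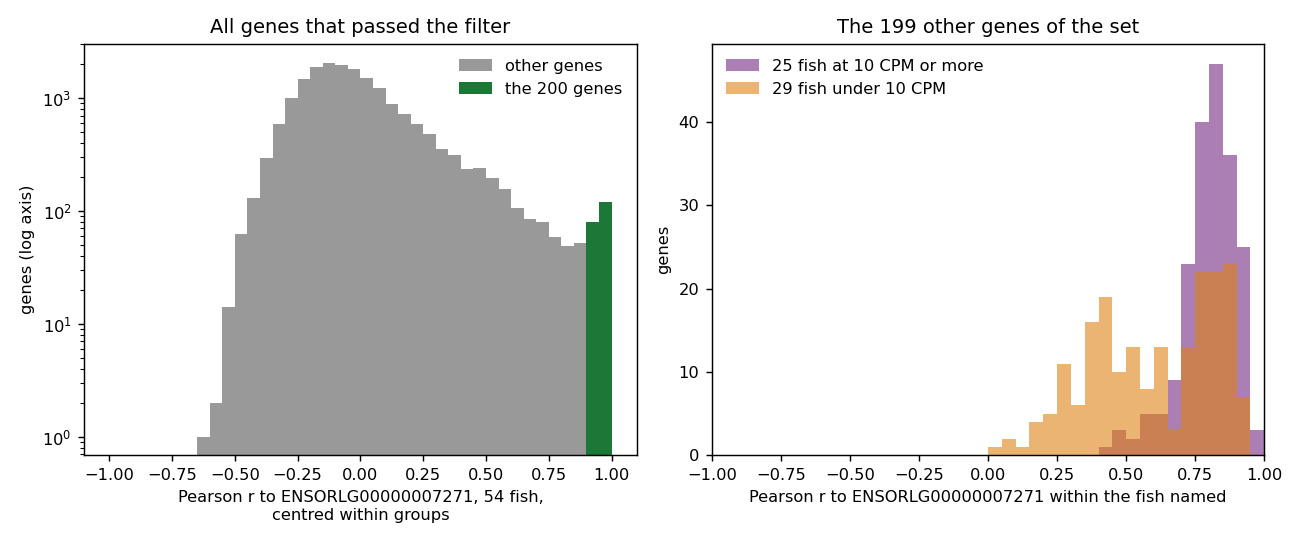
Left, Pearson r to ENSORLG00000007271 of all genes that passed the filter, over 54 fish and centred within groups, with the number of genes on a log axis; right, r of the 199 other members within the 25 fish at 10 CPM or more of that gene and within the 29 fish under 10 CPM. The members form the upper end of the left panel, from 0.902 up. In the right panel, where values are not centred by group, the median r is 0.813 in high fish and 0.618 in low fish.

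The members also followed one another. Over all 19900 pairs of members, r had a median of 0.9501 and a range of 0.807 to 0.997 in the same 54 fish. The first principal component of the centred values held 96.0% of their variance and the second held 0.783%, so a single number per fish described nearly all of the variation. These are consequences of choosing genes by their r to 1 gene, and they are given as a description.

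The members were also set against ENSORLG00000007271 within high fish and within low fish. Here the values were not centred by group, so differences between groups enter these r, unlike those above. Within the 25 high fish alone, the median r to ENSORLG00000007271 was 0.813 (0.429 to 0.968), and 195 of the 199 other members had r above 0.5. Within the 29 low fish alone, the median r was 0.618 (0.0309 to 0.942), and 124 had r above 0.5. Pairs of members had a median r of 0.863 in high fish and 0.411 in low fish. These fish and genes are those the rule used, so these r are a description. Some low fish lay part-way to the high ones: wild-type fish 72, 46, 44 and 49 had 9.47, 3.88, 1.47 and 1.06 CPM of ENSORLG00000007271. Their part in the r of the low fish was not tested. Low members have few reads in low fish, and the part of counting noise in the weaker correlation there was not tested.

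For 165 members, every one of the 25 high fish lay above every one of the 29 low fish. Among the 18680 genes outside the block 7 separated these fish in the same way. The fish were divided by the same gene that chose the members, so this contrast restates the choice. When the 6 fish kept out of the choice were added, 142 members, the first gene included, separated the 27 high from the 33 low fish. The added fish were also divided by the first gene. The number of other genes that did so was not computed, so this count is a description. A few fish lay between the extremes. Averaged over the 200 members, log2 CPM (here called the module level) ran from -2.52 to 5.10 over the 60 fish, and wild-type fish 72, 46, 49, 44 and 51 had 0.29, 0.18, -0.29, -0.45 and -0.72. The members took 0.0125% to 2.10% of a library's counts, with a median of 0.0379%.

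**Figure D3:**
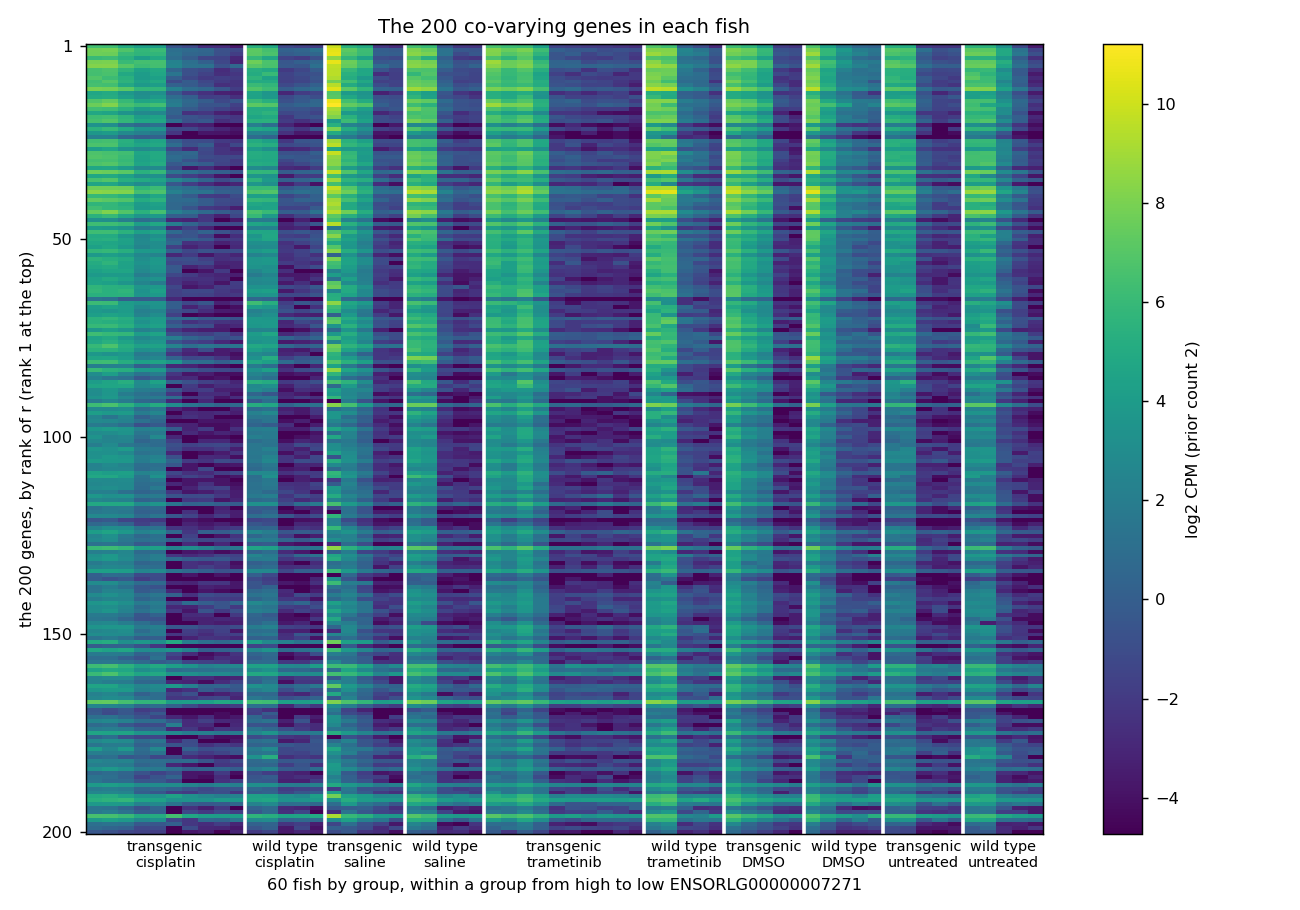
Level of each of the 200 members (rows, by rank of r) in each of the 60 fish (columns, by group and within a group from high to low ENSORLG00000007271), as log2 CPM with a prior count of 2. In each of the 10 groups the left columns are bright and the right columns dark over nearly all rows, which is the common step between high and low fish.

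Levels of the members were mostly modest on average and high in single fish. Mean CPM over the 60 fish ran from 0.337 to 202 with a median of 7.58, while genes outside the block had a median of 13.5. In all, 88 members averaged at least 10 CPM and 15 averaged under 1 CPM. Reads were found in all 60 fish for 108 members, and 13 members had 0 reads in 10 or more fish. CPM is not corrected for gene length, so these levels rank counts and not molecules.

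ENSORLG00000012471 had the highest mean of the members, 202 CPM. It had a lowest value of 0.557, a median of 13.1 and a highest value of 1492 CPM over the 60 fish. Its lowest fish was untreated wild-type fish 68 and its highest was wild-type trametinib fish 48. In transgenic fish it ran from 0.856 to 912 CPM with a median of 4.85, and in wild-type fish from 0.557 to 1492 CPM with a median of 14.7. The genotypes overlapped over nearly the whole range. At a given module level, as described below, it was lower in transgenic than in wild-type trametinib fish. The log2 difference was -0.94 (SE 0.24, adjusted p 0.0270 by edgeR), and the gene did not pass in the other 4 conditions. As set out below, SEs and p-values of members in these fits are too small to an unknown extent. Values of this difference with single fish left out were not examined. The next highest means were 134 CPM for ENSORLG00000012249, 115 CPM for ENSORLG00000019066, 114 CPM for ENSORLG00000012527 and 109 CPM for ENSORLG00000016580.

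ENSORLG00000020195, the gene closest to ENSORLG00000007271, ran from 0.376 to 1516 CPM in transgenic fish (median 2.19) and from 0.303 to 297 CPM in wild-type fish (median 5.63). Its value of 1516 CPM again came from fish 17. Within every group its highest fish exceeded its lowest by more than 100 CPM.

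The span between fish differed widely among members. The SD of log2 CPM within groups had a median of 3.04 over the members and ran from 0.947 to 4.12, while genes outside the block had a median of 0.317. Among the genes that passed the filter, 227 had an SD above 2, and 178 of these were members. ENSORLG00000002406 (4.12), ENSORLG00000008834 (4.07) and ENSORLG00000007271 (4.06) had the largest SDs. ENSORLG00000020686 had the smallest, 0.947, and was never low: it ran from 9.83 to 92.9 CPM in transgenic fish and from 10.4 to 121 CPM in wild-type fish. ENSORLG00000013694 (1.04) and ENSORLG00000008282 (1.33) were similar. These 3 members had r of at least 0.801 in the 25 high fish and of at most 0.314 in the 29 low fish, so they followed the first gene more closely in the high fish than in the low ones.

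The variance of the members lay mostly between the fish of a group. Differences between the 10 group means made up a median of 6.03% of a member's variance over the 54 fish, against 44.4% for genes outside the block. The rule picked genes that follow a gene of very large spread within groups, so a low share follows from it and is a description. The share was under 35% for each member, and the largest, 34.8%, belonged to ENSORLG00000014808, which is taken up below with the genotype comparison.

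The 6 fish kept out of the choice offered a look at the same genes in libraries that had not selected them. In transgenic trametinib fish 63, ENSORLG00000007271 had 98.7 CPM. All 200 members lay above the median of the fish of its group that the rule used. In transgenic cisplatin fish 21 and 31, it had 0.620 and 0.405 CPM, and 10 and 1 of the 200 members lay above that median. In wild-type cisplatin fish 40 and wild-type DMSO fish 47, it had 0.246 and 1.20 CPM, and 10 and 11 members lay above it. In these 5 fish nearly all members therefore lay on the same side as the first gene. The share of all genes on that side was not computed, so these counts are a description.

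Fish 17 was looked at separately. It had 8523 reads of ENSORLG00000007271, and 186 members lay above the median of the other transgenic saline fish, 148 of them above each of these fish. The share of all genes lying there was not computed. As CPM scaled by TMM is raised in this fish, these counts are a description. By contrast, 5 members had 0 reads in fish 17 and 21 had fewer than 10 reads. Fish 17 detected 17788 genes, the fewest of all libraries. It held the highest value of 83 members over the 60 fish when CPM was scaled by TMM and of 5 members when CPM was taken by library total, while wild-type trametinib fish 48 held 66 and 116 and transgenic DMSO fish 56 held 32 and 37. Which scaling is right for fish 17 was not tested.

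Within high fish and within low fish, no relation of ENSORLG00000007271 to library measures was detected. Total count, TMM factor and the percentage of reads taken by the 10 top genes were each set against it, giving 6 relations. Dividing the fish by the gene under study narrows its range, and the 6 fish of low TMM factor were left out, which narrows the range of that factor, so these relations say little about a link across all fish. In the 25 high fish, Pearson's r was -0.31 for the total count (permutation p 0.127, adjusted 0.468; Spearman's rho -0.30, p 0.144, adjusted 0.306; r -0.19 without the 2 farthest fish). It was 0.0787 for the TMM factor (permutation p 0.709, adjusted 0.851; rho 0.0846, p 0.688, adjusted 0.825; r -0.0138 without the 2 farthest). It was -0.29 for the top-10 share (permutation p 0.169, adjusted 0.468; rho -0.29, p 0.153, adjusted 0.306; r -0.25 without the 2 farthest).

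In the 29 low fish, r was -0.19 for the total count (permutation p 0.312, adjusted 0.468; rho -0.28, p 0.138, adjusted 0.306; r -0.16 without the 2 farthest fish). It was 0.00530 for the TMM factor (permutation p 0.978, adjusted 0.978; rho 0.0369, p 0.848, adjusted 0.848; r 0.307 without the 2 farthest). It was -0.22 for the top-10 share (permutation p 0.258, adjusted 0.468; rho -0.17, p 0.374, adjusted 0.561; r -0.29 without the 2 farthest). None of the 6 relations had an adjusted p under 0.05. At these numbers of fish a weak relation would go undetected.

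Genotype was compared within each condition by edgeR's quasi-likelihood test over all genes, and a gene was called at a Benjamini-Hochberg adjusted p below 0.05. The question was whether the members differ between xmrk transgenic and wild-type fish. The count model of this test fits poorly where a gene is high in some fish of a group and low in others. Most members are of this kind, so their standard errors and p-values are approximate, here and in the comparisons that follow. In trametinib fish 1 of 200 members was called, where 4.3% of all genes tested were, and it was lower in transgenic fish, as were 1.35% of all genes. In untreated fish 0 of 182 members tested were called, where 7.92% of all genes were. In saline, cisplatin and DMSO fish 0 of 200 were called in each, where 0.278%, 1.29% and 0.62% of all genes were.

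At an unadjusted p under 0.05 they numbered 1 in untreated fish (26.1% of all genes), 3 in saline (23.3%), 2 in cisplatin (9.7%), 1 in DMSO (12.7%) and 2 in trametinib fish (21.1%). DESeq2 called 1 member in untreated fish (15.1% of all genes), 2 in saline (3.7%), 0 in cisplatin (4.08%), 0 in DMSO (1.93%) and 1 in trametinib fish (8%).

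Median log2 fold changes of the members, transgenic over wild type, were -0.81 in untreated, 0.22 in saline, 1.14 in cisplatin, 0.55 in DMSO and -1.05 in trametinib fish. Over all genes tested the 5 medians lay between -0.05 and 0.10. The median standard error of a member's fold change was 1.46 to 1.76, against 0.138 to 0.400 over all genes. Leaving out 1 fish at a time moved these medians widely. In untreated fish the median ran from -1.49 (without transgenic fish 73) to -0.14 (without wild-type fish 69), and in saline fish from -1.24 (without transgenic fish 17) to 0.97 (without wild-type fish 34). In cisplatin fish it ran from 0.80 (without transgenic fish 24) to 1.72 (without wild-type fish 38), in DMSO fish from -0.72 (without transgenic fish 56) to 2.33 (without wild-type fish 43), and in trametinib fish from -1.64 (without transgenic fish 67) to -0.28 (without wild-type fish 48).

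ENSORLG00000014808 was the member called. With trametinib, the 10 transgenic fish had a lowest value of 0, a median of 0.0800 and a highest value of 1.69 CPM, and the wild-type fish had 98.3, 1.68, 103, 1.14 and 0.397 CPM. Its log2 fold change, transgenic over wild type, was -6.49 (SE 1.45, adjusted p 0.0134 by edgeR). The wild-type fish fall into high and low ones, which the model fits poorly, so this p-value is approximate. The groups overlapped: the 3 lower wild-type fish lay within the range of the transgenic fish, and the other 2, fish 48 and 50, lay far above it.

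In the other conditions ENSORLG00000014808 was also higher in the highest wild-type fish than in any transgenic fish of the condition. Untreated transgenic fish had 0.676, 0, 0, 0.0174 and 0.627 CPM, and untreated wild-type fish had 0, 19.3, 37.4, 0.367 and 5.76 CPM. In saline, transgenic fish had 0.957, 0.0852, 0.731, 4.86 and 0.0786 CPM, and wild-type fish had 56.6, 37.5, 0.798, 0.136 and 0.274 CPM. In both conditions the highest fish were wild type, and the low fish of the genotypes overlapped. With cisplatin, transgenic fish had a lowest value of 0.0198, a median of 0.413 and a highest value of 2.09 CPM, and wild-type fish had 10.5, 0.126, 0.164, 0.212 and 37.7 CPM. In DMSO, transgenic fish had 0.0547, 0.419, 0.0374, 1.91 and 1.21 CPM, and wild-type fish had 92.9, 1.29, 12.7, 0.175 and 1.02 CPM. The same pattern held there.

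Set against ENSORLG00000007271, the gene ENSORLG00000014808 ran on separate tracks in the genotypes. In the 17 transgenic fish that were high for the first gene it lay between 0.383 and 4.86 CPM with a median of 0.957. In the 10 wild-type fish that were high it lay between 10.5 and 103 CPM with a median of 37.6. These ranges did not touch. In the low fish it lay between 0 and 0.443 CPM in transgenic and between 0 and 5.76 CPM in wild-type fish. Its median was 0.0261 CPM in low transgenic fish and 0.367 CPM in low wild-type fish, so in either genotype the high fish had the higher median. The low fish of the genotypes were not alike in the first gene. It reached 0.620 CPM in low transgenic fish (fish 21) and 9.47 CPM in low wild-type fish (fish 72). The low medians can therefore not be read as a difference of genotype. The high and low fish were told apart by the first gene, and these ranges are a description.

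**Figure D4:**
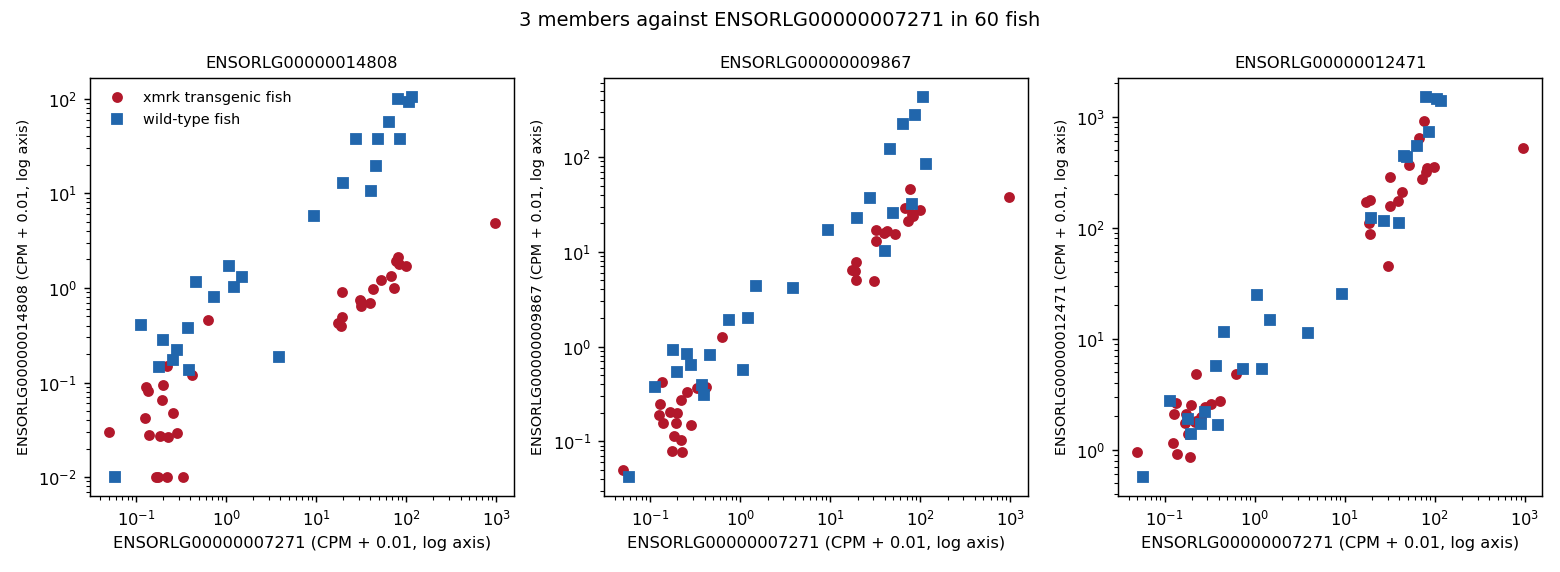
Levels of 3 members against ENSORLG00000007271 in the 60 fish, in CPM + 0.01 on log axes; circles are xmrk transgenic fish and squares wild-type fish, each point being 1 fish. For ENSORLG00000014808 the high transgenic fish (0.383 to 4.86 CPM) lie below the high wild-type fish (10.5 to 103 CPM), ENSORLG00000009867 shows a smaller shift with overlap, and for ENSORLG00000012471 the points of the genotypes intermingle.

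Drugs were compared with their vehicles in the same way. No member was called in any of the 4 comparisons (0 of 200 in each by edgeR). All genes called were 0.337% for cisplatin against saline in transgenic fish, 0.0749% in wild-type fish, 1.41% for trametinib against DMSO in transgenic fish and 5.23% in wild-type fish. At an unadjusted p under 0.05 the members numbered 6, 1, 0 and 0 in that order, where 8.3%, 9.49%, 15.1% and 23.4% of all genes did. DESeq2 called 0 members in each, where it called 1.17%, 1.55%, 4.18% and 10% of all genes. The median log2 fold changes of the members were -0.79 and -1.62 for cisplatin (transgenic fish, then wild type) and -0.65 and 0.88 for trametinib. Leaving out 1 fish at a time, the median for cisplatin ran from -1.12 (without transgenic cisplatin fish 24) to 0.66 (without fish 17) in transgenic fish and from -2.19 (without cisplatin fish 42) to -0.79 (without saline fish 34) in wild-type fish. That for trametinib ran from -1.21 (without trametinib fish 67) to 0.58 (without DMSO fish 56) in transgenic fish and from 0.13 (without trametinib fish 48) to 2.67 (without DMSO fish 43) in wild-type fish.

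Whether a drug response differed between the genotypes was tested as an interaction. It gave 0 called members of 200 for cisplatin and 0 of 200 for trametinib, where 0.00535% and 0.0748% of all genes were called. At an unadjusted p under 0.05 the members numbered 1 and 0, where 9.66% and 19.9% of all genes did. DESeq2 called 0 members in both, where it called 0.24% and 4.76% of all genes. The median differences of the log2 response, transgenic minus wild type, were 0.82 for cisplatin and -1.59 for trametinib, with median standard errors of 2.13 and 2.29. With 1 fish left out at a time, the median for cisplatin ran from -0.0013 (without wild-type saline fish 34) to 2.38 (without fish 17), and that for trametinib from -3.39 (without wild-type DMSO fish 43) to -0.32 (without transgenic DMSO fish 56).

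Vehicle fish were compared with untreated fish, a contrast that holds the move to a dish as well as the vehicle. No member was called (0 of 200 in each by edgeR). All genes called were 29.3% for saline in transgenic fish, 13.6% for saline in wild-type fish, 26.1% for DMSO in transgenic fish and 38.4% for DMSO in wild-type fish. At an unadjusted p under 0.05 the members numbered 6, 0, 2 and 0 in that order, where 41.9%, 25.6%, 35.9% and 47.1% of all genes did. DESeq2 called 6, 0, 1 and 0 members, where it called 36.3%, 21.9%, 28.9% and 41.9% of all genes. Median log2 fold changes of the members were 1.67, 0.56, 1.80 and 0.47 in the same order. With 1 fish left out at a time, the median for saline ran from 0.17 (without fish 17) to 2.29 (without untreated fish 73) in transgenic fish and from -0.26 (without saline fish 34) to 1.19 (without untreated fish 69) in wild-type fish. That for DMSO ran from 0.53 (without DMSO fish 56) to 2.44 (without untreated fish 73) in transgenic fish and from -1.32 (without DMSO fish 43) to 1.10 (without untreated fish 69) in wild-type fish.

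In 7 of the 15 comparisons leaving out 1 fish turned the sign of the members' median. At median standard errors of 1.37 to 2.29 on the log2 scale, smaller differences of single members were not detectable. These errors are large in part because of how the members were chosen. The low counts of called members beside the shares of all genes are therefore a description. Comparisons that share fish, within a genotype or between genotypes, are not independent of one another.

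**Figure D5:**
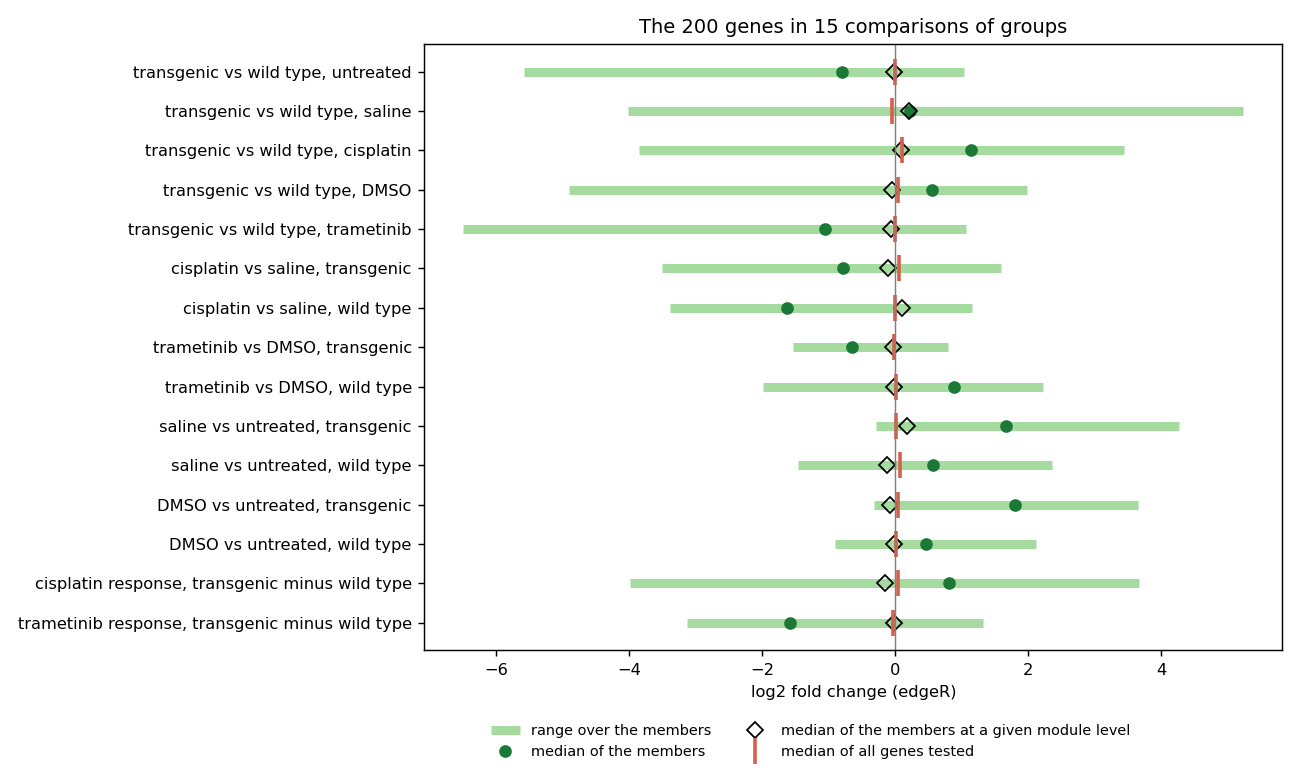
Log2 fold changes of the members in 15 comparisons, first-named group over second; green bars give the range over the members, filled circles their median, open diamonds their median at a given module level, and red ticks the median of all genes tested. The filled circles scatter between -1.62 and 1.80 while the red ticks lie near 0; the diamonds are drawn to 0 by construction, as the module level is the mean of the same members.

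To compare groups at the same state of the block, the module level of each fish was added to the edgeR fits as a covariate. This was chosen after seeing the data. As the members were picked for following 1 gene, their spread around the module level is small by choice. Standard errors and p-values of members in these fits are therefore too small to an unknown extent. Calls of members in them are a description. The median standard error of a member's difference then lay between 0.335 and 0.661, and the median difference between -0.16 and 0.20 in each of the 15 comparisons. Because the module level is the mean of the members themselves, this median is drawn to 0 by construction and is no result. Only the sizes of differences of single members from the rest of the block can be read from these fits.

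Between genotypes at a given module level, the members called were 2 in untreated, 2 in saline, 2 in cisplatin, 4 in DMSO and 11 in trametinib fish. All genes called by the same fits were 6.87%, 0.273%, 1.02%, 0.674% and 4.41%. As stated above, the standard errors and p-values of members in these fits are too small to an unknown extent. Their calls are a description, here and in the paragraphs that follow. ENSORLG00000014808 was lower in transgenic fish by log2 differences of -4.98 when untreated (SE 0.80, adjusted p 0.0107 by edgeR), -3.69 with cisplatin (SE 0.61, adjusted p 0.00191), -4.49 in DMSO (SE 0.61, adjusted p 0.000405) and -4.95 with trametinib (SE 0.50, adjusted p 5.1e-06). In saline the difference was -3.18 (SE 0.71, adjusted p 0.0579), and without the 6 fish of low TMM factor it was -3.48 (SE 0.68, adjusted p 0.00623). Leaving out each fish in turn kept the sign in all 5 conditions and the call in untreated, cisplatin, DMSO and trametinib fish.

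A further member lower in transgenic fish was ENSORLG00000009867, picked after its values were seen, like the members of the next paragraph. Its log2 difference at a given module level was -2.46 in saline (SE 0.41, adjusted p 0.00705 by edgeR) and -2.46 in DMSO (SE 0.36, adjusted p 0.00105). It was -2.15 in untreated fish (adjusted p 0.141), -1.16 with cisplatin (adjusted p 0.109) and -0.39 with trametinib (adjusted p 0.462), which did not pass. Without the 6 fish of low TMM factor the cisplatin difference was -1.52 (SE 0.29, adjusted p 0.00246). Among fish high for the first gene its range was 4.86 to 45.4 CPM in transgenic and 10.3 to 426 CPM in wild-type fish, which overlap. It was lower in wild-type trametinib fish than in wild-type DMSO fish, by a log2 difference of -2.24 (SE 0.35, adjusted p 0.00110). Values of that comparison with single fish left out were not examined. The comparison shares the wild-type DMSO fish with the genotype comparison in DMSO, so the results are not independent. Fish 43 of that group held the highest value of the gene, 426 CPM.

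ENSORLG00000014785 was lower in transgenic fish in DMSO, by a log2 difference of -2.02 (SE 0.40, adjusted p 0.0162 by edgeR), and with trametinib, by -1.42 (SE 0.34, adjusted p 0.0170), a call lost without wild-type trametinib fish 49 (adjusted p 0.0658). With cisplatin its difference was -1.80 (adjusted p 0.0887), and without the 6 fish of low TMM factor it was -2.31 (SE 0.32, adjusted p 0.000138). In saline its difference was 0.28 with fish 17 and the other fish of low TMM factor, and -0.52 without these fish, and neither passed. ENSORLG00000015051 was higher in transgenic saline fish by 4.35 (SE 0.74, adjusted p 0.00912). That call was lost without wild-type saline fish 33 (adjusted p 0.0509) or 34 (adjusted p 0.0646). Fish 17 had the highest value of ENSORLG00000015051, 70.0 CPM, and without fish 17 the difference was 3.22. Without the 6 fish of low TMM factor it was 3.30 (SE 0.47, adjusted p 0.000928 by edgeR). Its differences in untreated (0.49), cisplatin (1.81), DMSO (0.60) and trametinib fish (2.08) did not pass. Without the 6 fish the cisplatin difference was 2.45 (SE 0.47, adjusted p 0.00228). ENSORLG00000015051 was also lower in wild-type saline than in wild-type untreated fish, by a log2 difference of -2.65 (SE 0.77, adjusted p 0.0254). That comparison shares the wild-type saline fish with the genotype comparison in saline. ENSORLG00000015055 was higher in transgenic trametinib fish by 2.65 (SE 0.60, adjusted p 0.0134). Its call was lost without wild-type trametinib fish 48 (adjusted p 0.0550) or 49 (adjusted p 0.0557). Its differences in untreated (0.69), saline (2.75), cisplatin (1.28) and DMSO fish (0.29) did not pass. Without the 6 fish its saline difference was 2.91 (SE 0.52, adjusted p 0.00337). It too was lower in wild-type saline than in wild-type untreated fish, by a log2 difference of -1.91 (SE 0.60, adjusted p 0.0403). ENSORLG00000000667 was higher in transgenic trametinib fish by 2.49 (SE 0.44, adjusted p 0.00235), and in no other condition was it called between genotypes. Without the 6 fish this difference was 2.51 (SE 0.45, adjusted p 0.00306). Values of ENSORLG00000000667 with single fish left out were not examined.

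For the drugs at a given module level, 0 of 200 members were called by edgeR for cisplatin in transgenic and 0 in wild-type fish, where 0.235% and 0.0535% of all genes were. At an unadjusted p under 0.05 they numbered 19 and 11, where 5.89% and 9.07% of all genes did. For trametinib 0 were called in transgenic and 4 in wild-type fish, where 1.19% and 5.24% of all genes were. The members called in wild-type fish included ENSORLG00000007271 itself, with a log2 difference of -1.17 for trametinib. Without the 6 fish of low TMM factor this difference was -1.07. The members were chosen for following this gene, so its error here is set by the choice and no p-value is given. Without the covariate its log2 fold change was 0.55 (SE 1.95, adjusted p 0.883 by edgeR). In transgenic fish 4 members had an unadjusted p under 0.05 for trametinib, where 15.1% of all genes did. The interaction of drug and genotype gave 0 members for cisplatin and 0 for trametinib, where 0.00535% and 0.0481% of all genes were called. There 25 and 19 members had an unadjusted p under 0.05, where 8.73% and 21.1% of all genes did.

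For the vehicles at a given module level, saline against untreated gave 3 called members in transgenic and 2 in wild-type fish, where 22.6% and 14% of all genes were called. DMSO against untreated gave 5 in transgenic and 9 in wild-type fish, where 25.9% and 38.5% of all genes were called. As shares of the 200 members these are 1.5%, 1%, 2.5% and 4.5%.

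The counts in the fits that hold saline and cisplatin fish moved most when the 6 fish of low TMM factor were left out. Without these fish, at a given module level, the members called between genotypes were 2 in untreated fish (6.87% of all genes), 15 in saline (11.2%), 12 in cisplatin (12.8%), 3 in DMSO (0.432%) and 13 in trametinib fish (5.71%). Cisplatin against saline then gave 0 in transgenic (1.51% of all genes) and 6 in wild-type fish (11.8%), and trametinib against DMSO gave 0 in transgenic (2.51%) and 2 in wild-type fish (3.42%). Saline against untreated gave 4 in transgenic (37.8%) and 10 in wild-type fish (37.4%), and DMSO against untreated gave 7 (31.4%) and 11 (37.4%). The interaction gave 7 for cisplatin (9.07%) and 0 for trametinib (0%). Among the members called in these fits, ENSORLG00000014808 was lower in transgenic fish in each of the 5 conditions.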

How the data were processed

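The authors deposited raw read counts per gene for 60 libraries, whole numbers for 20459 Ensembl genes, made with TopHat2 (listed with version 2.2.4) and featureCounts, per the submitters' processing notes. Build, annotation, strand setting and multi-mapping treatment are not stated there, which leaves values of overlapping genes or near-identical copies uncertain.

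The software was edgeR 4.0.16 (limma 3.58.1) under R 4.3.3. Levels are CPM with TMM scaling over all 60 libraries; log2 values use a prior count of 2. Filtering used filterByExpr by group. The 5 fits (untreated; saline and cisplatin; DMSO and trametinib; untreated and saline; untreated and DMSO) used glmQLFit with robust dispersion and glmQLFTest, with Benjamini-Hochberg adjustment over all genes tested, and gave 15 comparisons. Standard errors come from the F statistic. Code was tested on simulated data. DESeq2 1.42.0 was an alternative, as were other filters, scalings, a single fit and leaving out each fish. Permutation correlations used 100000 resamples. Smallest chi-square between libraries of a group was 45.94 per gene, so no library duplicated another of its group. Libraries of different groups were not compared in this way.

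The members and the lists were chosen with earlier results of these data known. Genes are named as ENSORLG00000007271, the 5 highest and 5 lowest r, 5 just outside, the 5 highest mean CPM, the 3 largest and 3 smallest SDs, the 3 most negative r, and at most 2 called per direction and comparison. Outside these lists, ENSORLG00000009867, ENSORLG00000014785, ENSORLG00000015051, ENSORLG00000015055, ENSORLG00000020027 and ENSORLG00000000667 were picked after their values were seen. Marker lists could not be matched (0 identifiers) and were not used.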

Additional observations from a re-analysis of the deposited data

Results flagged for a closer look

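In groups of 5 or 10 fish, the highest or lowest fish was compared with its nearest neighbour relative to the group's range, for ENSORLG00000007271, ENSORLG00000014808, the module level and the share of counts in the members. Of 40 sets of values so examined (10 groups in each of these measures), 6 had a fish standing apart. All 6 were in CPM or share of counts, taken without a log scale, and none was in the module level. The limit used gives about 1 in 20 by chance for normally distributed values. These values are skewed and the measures overlap, so that rate cannot be set against the 6. Transgenic saline fish 17 stood apart with 963 CPM of ENSORLG00000007271 and with 4.86 CPM of ENSORLG00000014808. Its TMM factor of 0.232 was the lowest of the series, and its part in these values was not tested beyond the 224 CPM that the first gene has by library total. Wild-type DMSO fish 43 stood apart with 107 CPM of ENSORLG00000007271, with 92.9 CPM of ENSORLG00000014808 and with 1.69% of its counts in the members. Wild-type cisplatin fish 42 stood apart with 37.7 CPM of ENSORLG00000014808.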

How the results depend on the processing

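No paired analysis was possible because each fish number occurs once and the groups share none. Leaving out 1 fish kept 194 to 200 of the 200 members. By r within the 25 high fish alone 144 were kept, and within the 29 low fish alone 124 (both added after seeing the data and not centred by group).

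DESeq2 called 1 member between genotypes in untreated fish (15.1% of all genes) and 2 in saline fish (3.7%). In transgenic fish it called 6 for saline against untreated (36.3%) and 1 for DMSO against untreated (28.9%). In these comparisons edgeR called 0. For saline against untreated in transgenic fish a single fit of all groups called 1 and leaving out 1 fish gave 0 to 3 (3 without fish 15, 2 without fish 18). The shares of all genes called are not given for these settings, and in the main edgeR fit the share was 29.3%. These few calls are therefore no result about the members.

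With the module level as covariate, members called between genotypes were 2 in untreated, 2 in saline, 2 in cisplatin, 4 in DMSO and 11 in trametinib fish, and without the 6 fish of low TMM factor 2, 15, 12, 3 and 13. Cisplatin in wild-type fish gave 0 and 6, trametinib in wild-type fish 4 and 2, and the cisplatin interaction 0 and 7. Saline against untreated gave 3 and 4 in transgenic and 2 and 10 in wild-type fish. DMSO against untreated gave 5 and 7 in transgenic and 9 and 11 in wild-type fish. The shares of all genes called by these fits stand beside the same counts in the results above. Calls of members in these fits are a description, as stated there.

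The log2 difference of ENSORLG00000007271 turned sign without the 6 fish of low TMM factor between genotypes in saline (-0.15) and for cisplatin against saline in transgenic (0.76) and wild-type fish (0.26). Leaving out 1 fish, it ran between genotypes from -0.15 to 3.00 in saline, -0.25 to 1.53 in cisplatin, -1.33 to 0.78 in DMSO and -1.96 to 0.46 in trametinib fish. It ran from -2.99 to 0.16 for cisplatin in transgenic and -1.52 to 0.77 in wild-type fish, and from -2.14 to 0.28 for trametinib in wild-type fish. Against untreated wild-type fish it ran from -1.74 to 0.57 for saline and -0.49 to 1.80 for DMSO. In the permutation test no setting gave an adjusted p under 0.873.

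At a given module level, the difference of ENSORLG00000014785 between genotypes in saline was -0.52 without the 6 fish and ran from -0.58 to 0.57 leaving out 1 fish, that of ENSORLG00000015055 in DMSO from -0.062 to 0.65, and that of ENSORLG00000020027 in untreated fish from -0.12 to 1.36. The causes were not tested. Median standard errors of the members, 1.37 to 2.29 on the log2 scale, limit what these comparisons can detect.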
